A study of Homo sapiens with 10 samples.

Results

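The genes described here are the axon guidance ligands and receptors: the semaphorins with their plexin and neuropilin receptors, the ephrins with the Eph receptors, the netrins and netrin-G proteins with DCC, neogenin and the UNC5 receptors, the Slit ligands with the Robo receptors, and draxin. They were taken by gene symbol and numbered 73 of the 30357 named genes in the deposited gene table. Of the 73 genes, 70 passed a filter on low counts and were tested along with 16130 genes in all. The netrins NTN3 and NTN5 and the receptor ROBO4 missed the filter. All 10 libraries came from neurons derived from RUES2-Avil:tdT, an established human embryonic stem cell line carrying a tdTomato reporter for the sensory neuron gene AVIL, on day 60 in vitro. The cultures were made by a nociceptor protocol (4 libraries), a mechanoreceptor protocol (3) or a proprioceptor protocol (3), and the labels call the libraries of a protocol biological replicates. The comparison between protocols asks how far cultures directed toward different classes of sensory neuron differed in these genes. A single line was used, no untreated culture is among the libraries, and each library is a bulk RNA sample, so that fewer cells of a type and less RNA per cell cannot be told apart.

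Axon guidance proteins steer the growing tip of an axon by attraction or repulsion. Semaphorins act through plexins, and most secreted semaphorins (class 3) need a neuropilin as co-receptor. Ephrins are bound to the membrane and signal through Eph receptor tyrosine kinases on touching cells. Netrin-1 attracts through DCC and repels through UNC5 receptors, and Slits repel through Robo receptors. In developing sensory ganglia such cues sort central and peripheral projections, and many are made by glia, mesenchyme and other tissue around the axon as well as by neurons.

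In 4 receptor genes the deposited transcript values placed part or most of the abundance, corrected for transcript length, on short transcripts. These leave the full-length coding sequence at the end of a known exon. The genes are EPHA8, EPHA6, NRP1 and UNC5C, and the sequences show where the transcripts behind the gene value part. By estimated counts, full-length transcripts held 58.7% in EPHA6, 62.8% in NRP1 and 58.1% in UNC5C, but 10.7% in EPHA8. The sequences are coding sequence from GENCODE 29 (GRCh38), with 60 bases shared by both transcripts in lower case and the following bases, found in that transcript alone, in capitals. For EPHA8 the sequences part after codon 438, at position 22589206 of chromosome 1 (plus strand), the end of exon 5 of 17. For EPHA6 they part after codon 535 at position 97244287 of chromosome 3, the end of exon 5 of 18.
EPHA8 short: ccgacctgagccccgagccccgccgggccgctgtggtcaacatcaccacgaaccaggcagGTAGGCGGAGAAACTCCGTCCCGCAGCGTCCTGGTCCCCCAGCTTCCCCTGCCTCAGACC
EPHA8 full: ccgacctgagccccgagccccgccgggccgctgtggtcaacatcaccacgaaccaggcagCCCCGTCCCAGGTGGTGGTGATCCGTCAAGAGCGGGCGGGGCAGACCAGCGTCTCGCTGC
EPHA6 short: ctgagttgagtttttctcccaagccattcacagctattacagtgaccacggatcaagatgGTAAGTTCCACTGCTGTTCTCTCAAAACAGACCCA
EPHA6 full: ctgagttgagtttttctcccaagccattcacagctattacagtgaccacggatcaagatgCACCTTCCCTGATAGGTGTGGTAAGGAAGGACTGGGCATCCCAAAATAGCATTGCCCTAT
NRP1 parts after codon 641 at position 33197650 of chromosome 10, the end of exon 12 of 17, and UNC5C after codon 258 at position 95250487 of chromosome 4, the end of exon 5 of 16. Their short transcripts add only 8 and 5 coding bases of their own.
NRP1 short: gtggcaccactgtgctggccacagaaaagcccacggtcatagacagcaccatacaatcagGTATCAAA
NRP1 full: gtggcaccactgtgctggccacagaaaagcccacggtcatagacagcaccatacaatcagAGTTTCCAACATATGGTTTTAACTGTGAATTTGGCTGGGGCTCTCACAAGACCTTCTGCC
UNC5C short: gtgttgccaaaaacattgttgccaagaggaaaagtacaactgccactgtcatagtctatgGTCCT
UNC5C full: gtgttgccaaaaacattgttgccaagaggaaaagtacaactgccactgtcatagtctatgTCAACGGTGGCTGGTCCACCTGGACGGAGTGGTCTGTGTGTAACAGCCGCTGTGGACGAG
In EPHA8, EPHA6 and NRP1 the exon of the short transcript runs on past the point where the full-length exon ends. UNC5C uses a different last exon.

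The libraries held 27891186 to 44541262 estimated counts in named genes. Levels are given as TPM, an abundance corrected for transcript length and scaled to the same total in every library, and values of a protocol are listed in the order of its libraries. All 12 pan-neuronal markers were at 1 TPM or above in every library. Their summed level ran from 5175 TPM in nociceptor library 3 to 15860 TPM in proprioceptor library 1. Markers of sensory neuron identity summed to 664 TPM in nociceptor library 3 and up to 2114 TPM in nociceptor library 4. Markers of other cells differed widely between libraries. The fibroblast and mesenchyme list (15 genes, mean log2 CPM) stood at 4.46, 4.51, 4.31 and 1.70 in the 4 nociceptor libraries, at -0.03, 0.22 and 3.76 in the 3 from the mechanoreceptor protocol and at 0.58, 3.79 and 0.38 in the 3 from the proprioceptor protocol, with a summed level of 20.8 to 3992 TPM. The Schwann and satellite glia list (10 genes) ran from -0.49 to 6.01 with the same 5 libraries highest, so these levels cannot be told apart. Endothelial markers summed to at most 17.2 TPM and central nervous system markers to at most 10.3 TPM, with 3 to 6 of the 8 central genes at 0 counts. Proprioceptor library 1 stood apart. Of its coding counts 11.3% fell on transcripts of 4 kb or longer, against 17.4% to 26.1% in the other 9 libraries. This library had 12066 genes at 1 TPM or above, against 13174 to 14160 elsewhere. Of the 70 tested guidance genes 39 had their lowest TPM there and 0 their highest. The same was not counted over all genes, so it cannot be read as particular to guidance genes.

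**Figure D1:**
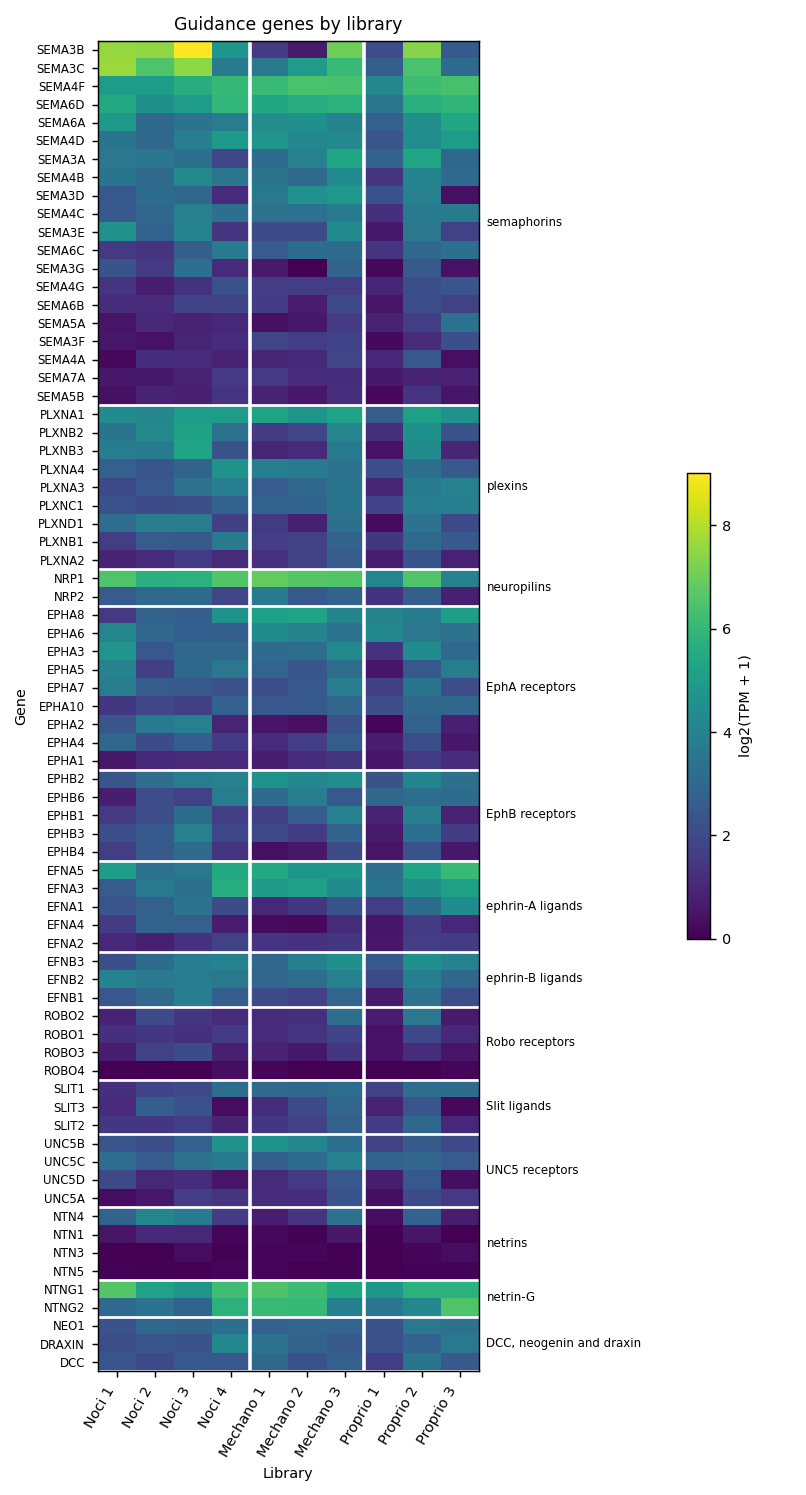
Heat map of log2(TPM + 1) for all 73 guidance genes (vertical axis, grouped by family) in the 10 libraries (horizontal axis, grouped by protocol with white lines between protocols). SEMA3B and SEMA3C are bright in the first 3 nociceptor columns, mechanoreceptor column 3 and proprioceptor column 2, and proprioceptor library 1 is dark in most genes.

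Among the guidance genes, 34 of 73 reached 1 TPM in every library and 3 (NTN3, NTN5, ROBO4) in none. Summed over all 73 they came to 1036, 760.7, 1345 and 889 TPM in nociceptor, 849, 839 and 1102 in mechanoreceptor and 246, 1159 and 804 in proprioceptor libraries. Proprioceptor library 1 was the lowest by a wide margin, and the other 9 overlapped between protocols.

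Semaphorins are the largest family, with 20 members, 9 of them at 1 TPM or above in every library. SEMA3B, a secreted class 3 semaphorin on chromosome 3 (50260226 to 50277546, GRCh38.p14), had 192, 182, 513 and 25.3 TPM under the nociceptor protocol (libraries 1 to 4), 1.91, 0.567 and 129 under the mechanoreceptor protocol and 3.36, 164 and 4.87 under the proprioceptor protocol. It was at 129 TPM or above in 5 libraries and at 25.3 TPM or below in the other 5, and every protocol held libraries of both kinds. SEMA3C, also secreted, had 198, 91.3, 176 and 12.4 TPM in nociceptor, 11.2, 29.6 and 67.7 in mechanoreceptor and 5.25, 84.8 and 7.87 in proprioceptor cultures. Its highest values were in nociceptor libraries 1 and 3, and the groups overlapped. SEMA3A, the classical repellent of sensory axons, had 10.9, 10.5, 9.03 and 2.74 TPM in nociceptor, 7.83, 14 and 39.7 in mechanoreceptor and 6.2, 39.1 and 7.31 in proprioceptor cultures. It peaked in mechanoreceptor library 3 and proprioceptor library 2, while every nociceptor library was at 10.9 TPM or below. SEMA4F and SEMA6D, both membrane-bound, were the steadiest of the abundant members, with 16.9 to 84.3 TPM and 10.6 to 62.0 TPM. SEMA5A, also membrane-bound, was at 0.289 to 2.15 TPM in 9 libraries and at 9.25 TPM in proprioceptor library 3.

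Plexins are the signalling receptors of semaphorins, and 5 of 9 were at 1 TPM or above in every library. PLXNA1, which pairs with neuropilins, had the highest mean of the family. Its values were 19.3, 17, 29.6 and 30.4 TPM in nociceptor, 35.1, 25.5 and 35.6 in mechanoreceptor and 5.28, 33.5 and 23.8 in proprioceptor cultures. Proprioceptor library 1 was the low one and the rest lay between 17.0 and 35.6 TPM. PLXNB2, a receptor of class 4 semaphorins, had 10.3, 17.9, 34.7 and 9.33 TPM in nociceptor, 2, 2.69 and 16.2 in mechanoreceptor and 1.31, 21.8 and 3.9 in proprioceptor cultures. It was lowest in the same libraries in which SEMA3B was low. The neuropilin NRP1 had 91.3, 51.6, 52.4 and 92.5 TPM in nociceptor, 113, 95.6 and 94.2 in mechanoreceptor and 16.3, 91 and 14.1 in proprioceptor cultures. Proprioceptor libraries 1 and 3 were far below all others, and proprioceptor library 2 fell among them. NRP2 had 5, 7.54, 7.66 and 2.65 TPM in nociceptor, 12.1, 4.58 and 6.27 in mechanoreceptor and 1.51, 5.68 and 0.732 in proprioceptor cultures. Again proprioceptor libraries 1 and 3 were lowest, and NRP1 was the more abundant of the pair in every library.

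Ephrins are ligands of the Eph receptors, and of 5 ephrin-A genes 3 reached 1 TPM in every library. EFNA5 had 30.9, 9.37, 11 and 43.7 TPM in nociceptor, 43.7, 26.2 and 25.5 in mechanoreceptor and 8.28, 36.5 and 65.4 in proprioceptor cultures. EFNA3 had 5.07, 11.4, 8.49 and 47.6 TPM in nociceptor, 28.7, 35 and 19.3 in mechanoreceptor and 10.2, 22 and 33.4 in proprioceptor cultures. For both the groups overlapped, and nociceptor library 4 was the highest of its group. The neighbouring genes EFNA4 (155063740 to 155069553), EFNA3 (155078837 to 155087538) and EFNA1 (155127876 to 155134899) on chromosome 1 had different patterns: EFNA3 was lowest in nociceptor library 1 and highest in nociceptor library 4, while EFNA4 was highest in nociceptor libraries 2 and 3 and EFNA1 in proprioceptor library 3. Of the ephrin-B genes, EFNB3 ran from 3.64 to 21.8 TPM and EFNB2 from 3.07 to 15.2 TPM, with overlapping groups.

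Of the Eph receptors, EPHA8 had the highest mean among the A class. Its values were 1.86, 6.32, 5.69 and 23.7 TPM in nociceptor, 33.3, 36.3 and 15.5 in mechanoreceptor and 15.3, 11.7 and 31.7 in proprioceptor cultures. Nociceptor libraries 1 to 3 were the 3 lowest, and nociceptor library 4 lay within the range of the other protocols. EPHA6 had 16, 7.06, 5.41 and 5.39 TPM in nociceptor, 20.04, 15.4 and 9.49 in mechanoreceptor and 17.5, 10.9 and 9.24 in proprioceptor cultures. Its highest value in nociceptor libraries (library 1) exceeded 4 of the 6 values in the other protocols. EPHB2, the most abundant of the B class, had 4.37, 8.24, 13 and 14.7 TPM in nociceptor, 23.9, 16.8 and 20.6 in mechanoreceptor and 3.95, 15.7 and 9.06 in proprioceptor cultures. All 3 mechanoreceptor libraries were above all 4 nociceptor libraries, and proprioceptor libraries overlapped with nociceptor libraries. EPHB6, which lacks kinase activity, had 0.691, 3.4, 2.4 and 13.1 TPM in nociceptor, 8.15, 13.4 and 4.53 in mechanoreceptor and 7.08, 8.57 and 7.99 in proprioceptor cultures. Nociceptor libraries 1 to 3 were the lowest of all 10, with nociceptor library 4 near the top.

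Netrin-1 (NTN1), the founding attractant of the family, was scarce, at 0.0201 to 1.00 TPM, whereas its receptor DCC stood at 2.15 to 10.3 TPM. NTN4, a netrin of basement membranes, was the most abundant secreted netrin. Its values were 6.5, 16.5, 11.7 and 1.98 TPM in nociceptor, 0.658, 1.58 and 9.39 in mechanoreceptor and 0.245, 6.13 and 0.618 in proprioceptor cultures. The netrin-G genes encode membrane-anchored relatives that bind their own partners rather than DCC. NTNG1 had 96.2, 35.9, 25 and 74 TPM in nociceptor, 88.1, 72.8 and 40.3 in mechanoreceptor and 25.5, 52.3 and 53.6 in proprioceptor cultures. NTNG2 had 7.46, 9.83, 6.51 and 54 TPM in nociceptor, 67.1, 64.8 and 13.9 in mechanoreceptor and 10.6, 17.1 and 90.8 in proprioceptor cultures. NTNG2 was high in nociceptor library 4, mechanoreceptor libraries 1 and 2 and proprioceptor library 3, each above 53 TPM, and at most 17.1 TPM elsewhere.

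Among receptors that respond to netrin, neogenin (NEO1) varied least, with 3.81 to 10.96 TPM. The repulsive receptor UNC5B had 4.21, 3.51, 5.72 and 22.3 TPM in nociceptor, 23.6, 16.4 and 8.89 in mechanoreceptor and 2.42, 4.89 and 2.98 in proprioceptor cultures. It was above 16 TPM in nociceptor library 4 and mechanoreceptor libraries 1 and 2, and the proprioceptor libraries were all below all mechanoreceptor libraries. UNC5C had 8.28, 5.07, 9.34 and 12.2 TPM in nociceptor, 5.42, 7.85 and 14.5 in mechanoreceptor and 6.21, 6.93 and 5.01 in proprioceptor cultures, and the groups overlapped. DRAXIN, a secreted repellent that binds DCC, was at 3.49 to 16.6 TPM, highest in nociceptor library 4. Slits and Robos were low: ROBO2 had 0.557 to 10.8 TPM, with 9.13 in mechanoreceptor library 3 and 10.8 in proprioceptor library 2 and no other library above 3.13. SLIT1 had 1.36, 2.52, 2.95 and 8.65 TPM in nociceptor, 7.58, 7.06 and 8.59 in mechanoreceptor and 2.41, 8.28 and 8.03 in proprioceptor cultures. Nociceptor libraries 1 to 3 and proprioceptor library 1 were below 3 TPM and the other 6 above 7. SLIT3 ran from 0.134 to 6.78 TPM.

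Most other members are given here by their range over the 10 libraries. SEMA6A and SEMA4D, both membrane-bound, ran from 5.79 to 41.3 and from 4.15 to 29.5 TPM, and SEMA4B, SEMA4C and SEMA6C from 1.62 to 19.4, 1.33 to 14.3 and 1.59 to 11.8 TPM, whereas SEMA3F, SEMA4A, SEMA4G, SEMA5B, SEMA6B and SEMA7A stayed at 4.47 TPM or below. The class 3 members SEMA3D and SEMA3E ran from 0.308 to 26.6 and from 0.501 to 23.6 TPM. Of the plexins, PLXNA4 ran from 3.58 to 23.2, PLXNA3 from 0.978 to 15.1, PLXND1 from 0.206 to 12.7, PLXNB1 from 1.73 to 12.4 and PLXNA2 from 0.63 to 5.2 TPM. EPHA3 ran from 1.41 to 25.1, EPHA5 from 0.464 to 14.9, EPHA7 from 2.28 to 13.0, EPHA2 from 0.104 to 14.2, EPHA4 from 0.487 to 6.92, EPHA10 from 1.76 to 7.27 and EPHA1, the scarcest of its class, from 0.472 to 2.03 TPM. Of the B class, EPHB1 ran from 0.807 to 14.1, EPHB3 from 0.57 to 14.1 and EPHB4 from 0.308 to 7.93 TPM. The ligands EFNA2, EFNB1 and SLIT2 ran from 0.505 to 2.31, 0.562 to 13.5 and 0.8 to 7.31 TPM. Among the least abundant receptors were ROBO1 (at most 2.85 TPM), ROBO3 (3.19), UNC5A (4.07) and UNC5D (4.65). The 3 genes that missed the filter reached at most 0.232 (NTN3), 0.121 (NTN5) and 0.259 TPM (ROBO4), and ROBO4, a receptor known from endothelium, had 0 counts in 4 libraries.

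Between mechanoreceptor and nociceptor cultures edgeR's quasi-likelihood test called 0 of 70 guidance genes at an adjusted p under 0.05, and 0 of all 16130 genes (0%; smallest adjusted p = 0.598). At an unadjusted p under 0.05 there were 2 guidance genes, EFNA4 and PLXNC1, where 8.18% of all genes reached that level (3.59% higher, 4.59% lower). EFNA4, a ligand of EphA receptors, had 2, 6.5, 5.72 and 0.634 TPM in nociceptor, 0.187, 0.17 and 1.19 in mechanoreceptor and 0.46, 1.97 and 1.03 in proprioceptor cultures. Mechanoreceptor libraries 1 and 2 were the lowest of all, on 4 and 5 counts, and the groups overlapped through mechanoreceptor library 3. Its log2 difference, mechanoreceptor minus nociceptor, was -3.03 ± 0.99 (SE, n = 3 and 4; edgeR adjusted p = 0.598), and DESeq2 called it at an adjusted p = 0.0427, among 131 of 19690 genes (0.665%). Leaving out single libraries moved the difference between -4.67 (without mechanoreceptor library 3) and -2.59. PLXNC1, the receptor of the semaphorin SEMA7A, had 3.8, 3.21, 3.53 and 6.21 TPM in nociceptor, 6.22, 6.57 and 10.4 in mechanoreceptor and 2.52, 13.4 and 13.9 in proprioceptor cultures. The mechanoreceptor libraries lay above the nociceptor libraries, though the nociceptor library 4 value was almost that of mechanoreceptor library 1, and the difference was 0.96 ± 0.40 on the log2 scale (edgeR adjusted p = 0.598). The next named differences were EPHB6 at 1.31 ± 0.62, SEMA3A at 1.13 ± 0.54, SLIT1 at 1.13 ± 0.55, EPHA8 at 1.48 ± 0.74, EFNA1 at -1.43 ± 0.72 and SEMA3C at -1.98 ± 1.05, with unadjusted p from 0.0591 to 0.0868. With the mesenchyme level as a covariate the SEMA3C difference became 0.40. The TPM values did not overlap in 6 genes, all higher in mechanoreceptor libraries (EPHB2, NRP1, PLXNC1, SEMA3D, SEMA3F and SEMA4F), against 8.05% of all genes, and in 0 genes lower, against 1.84%. The median difference over the 70 genes was 0.16, with 42 of them higher, beside 0.00 over all genes, of which 50.1% were higher. Without mechanoreceptor library 3 the median was -0.11, with 29 of 72 higher, and without nociceptor library 4 it was 0.40, with 43 of 70 higher. Of the 8 named differences 7 moved by over 1.5 times in some fit that left out 1 library, with none changing sign. Without mechanoreceptor library 3 SEMA3A stood at 0.48, PLXNC1 at 0.60 and EFNA1 at -2.23, and without nociceptor library 4 EPHA8 stood at 2.52, EPHB6 at 2.04 and SLIT1 at 1.73. EPHB6 stood at 0.84 without mechanoreceptor library 2.

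Between proprioceptor and nociceptor cultures 0 of 70 guidance genes and 0 of all genes (0%) passed (smallest adjusted p = 0.665), and at an unadjusted p under 0.05 there were 2, SEMA5A and PLXNC1, both higher, beside 6.19% of all genes (3.05% higher, 3.14% lower). DESeq2 called 0 guidance genes and 31 genes in all (0.157%). SEMA5A, on chromosome 5, had 0.401, 0.989, 0.86 and 1.03 TPM in nociceptor, 0.289, 0.5 and 2.06 in mechanoreceptor and 0.806, 2.15 and 9.25 in proprioceptor cultures. Proprioceptor library 3 alone was far above the rest, and proprioceptor library 1 lay inside the nociceptor range. The log2 difference was 2.41 ± 0.71 (edgeR adjusted p = 0.665) and moved between 1.13 (without proprioceptor library 3) and 2.76 when single libraries were left out. The PLXNC1 difference was 1.19 ± 0.40, although proprioceptor library 1 was the lowest of all libraries. SEMA6A, a membrane-bound semaphorin, differed by 0.73 ± 0.38, NRP1 by -1.11 ± 0.52, NRP2 by -1.32 ± 0.71, UNC5B by -1.22 ± 0.62, SEMA3C by -2.14 ± 1.06 and EPHB6 by 1.15 ± 0.62, with edgeR unadjusted p of 0.0581 or more. The values did not overlap in 0 genes in either direction, against 1.49% (higher) and 1.45% (lower) of all genes. The median over 70 genes was -0.04, with 34 higher, beside 0.03 over all genes, of which 52.2% were higher. Without proprioceptor library 1 it was 0.27 over 72 genes, with 42 higher, beside -0.07 over all genes. It was 0.16 over 70 genes with 39 higher without nociceptor library 4, and -0.52 over 72 genes with 25 higher without proprioceptor library 2. Of the 8 named differences 7 moved by over 1.5 times in some such fit, again with none changing sign: UNC5B to -0.26 and EPHB6 to 1.88 without nociceptor library 4, SEMA6A to 0.23 and NRP2 to -0.88 without proprioceptor library 3, and NRP1, NRP2 and SEMA3C to -2.21, -2.72 and -3.78 without proprioceptor library 2.

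Between proprioceptor and mechanoreceptor cultures 0 of 70 guidance genes and 0 of all genes (0%) passed, the smallest adjusted p being 1. At an unadjusted p under 0.05 there were 5, SEMA5A, EFNA1, UNC5B, NRP1 and NRP2, where 1.49% of all genes reached that level (0.744% higher, 0.75% lower). DESeq2 called 0 guidance genes and 1 gene in all (0.0041%). SEMA5A differed by 2.66 ± 0.80. EFNA1, an ephrin-A ligand, had 4.23, 5.7, 9.72 and 3.25 TPM in nociceptor, 1.07, 1.75 and 4.11 in mechanoreceptor and 2.2, 8.05 and 19.7 in proprioceptor cultures. Proprioceptor library 3 was the highest of all and proprioceptor library 1 lay in the mechanoreceptor range, and the difference was 2.14 ± 0.77. UNC5B differed by -1.99 ± 0.67, and its proprioceptor values of 2.42, 4.89 and 2.98 TPM lay below the mechanoreceptor values of 23.6, 16.4 and 8.89. NRP1 differed by -1.25 ± 0.55 and NRP2 by -1.76 ± 0.75. Proprioceptor library 2 was just under the mechanoreceptor range in NRP1 and inside it in NRP2. EPHB2 differed by -0.81 ± 0.45, SEMA7A by -0.80 ± 0.55 and SEMA3D by -1.52 ± 1.06. Of these 8 differences 5 moved by over 1.5 times when 1 library was left out, with none changing sign. Without proprioceptor library 3 SEMA5A stood at 1.42, EFNA1 at 1.24 and SEMA3D at -0.94, and without proprioceptor library 2 NRP1 stood at -2.27 and NRP2 at -3.12. The TPM values did not overlap in 5 genes, all lower in proprioceptor libraries (EPHB2, NRP1, PLXNA4, SEMA7A and UNC5B), against 5.02% of all genes, and in 0 genes higher, against 0.868%. The median over the 70 genes was -0.16, with 26 higher, beside 0.04 over all genes, of which 53.7% were higher. It was 0.17 over 72 genes with 48 higher without proprioceptor library 1. Without proprioceptor library 2 it was -0.78, with 18 of 72 higher, and without mechanoreceptor library 3 it was 0.29 with 50 of 72 higher.

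By family, most had members in both directions. The families with all tested members on 1 side were small. In mechanoreceptor minus nociceptor libraries these were the 2 neuropilins, the 3 Slits and the 2 netrin-G genes, all higher (median log2 differences 0.29, 1.13 and 0.76), and the 2 tested netrins, both lower (-1.49). In proprioceptor minus nociceptor libraries they were the neuropilins (-1.21) and netrins (-1.97), all lower. In proprioceptor minus mechanoreceptor libraries they were the neuropilins (-1.50), the 4 UNC5 receptors (-0.30), the netrins (-0.48) and the netrin-G genes (-0.27), all lower. The contrasts share libraries (the proprioceptor libraries in 2 of the 3, for instance) and are given side by side. A test over all 3 protocols at once also called 0 of 70, with 4 at an unadjusted p under 0.05 (EFNA4, PLXNC1, SEMA5A and UNC5B) beside 5.73% of all genes. The share of variance lying between protocols had a median of 21.0% in the 70 genes and 21.4% over all tested genes. Means of 3 groups take up part of the variance of 10 libraries even without a protocol effect. The share was not corrected for this.

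**Figure D2:**
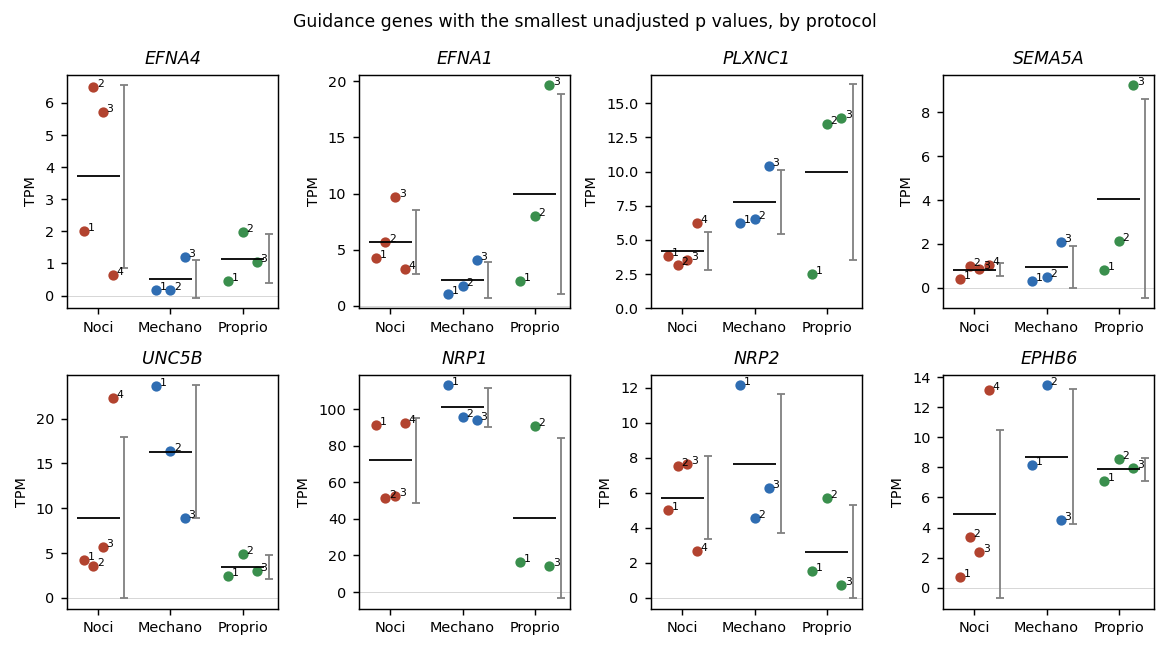
TPM of 8 guidance genes named in the contrasts, 1 point per library (the number is the replicate number) by protocol, with the protocol mean as a black line and a grey bar for 1 SD on each side of it. SEMA5A is high in proprioceptor library 3 alone, and EFNA1 is highest there. UNC5B is low in all 3 proprioceptor libraries and in nociceptor libraries 1 to 3.

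The level of many guidance genes moved with the markers of cells other than neurons. SEMA3B, NTN4, PLXNB3, EPHB4 and EPHA2 rose with these markers within protocols, and NTNG2 fell. A slope on the fibroblast and mesenchyme level, fitted with a mean for each protocol, was called for 25 of 70 genes, 35.7%, beside 10.7% of all genes. With a higher level 22 rose (31.4%, beside 9.29%) and 3 fell (4.29%, beside 1.37%). The 10 libraries did not spread evenly along this level: 5 lay between 3.76 and 4.51, 4 between -0.03 and 0.58 and 1 (nociceptor library 4) at 1.70, so each slope rests on the difference between these sets, and neither set is large enough for a slope of its own. The glia level, which moved with the mesenchyme level, gave 17 genes (24.3%, beside 8.03%), 16 rising (beside 7.34%) and 1, NTNG2, falling (beside 0.694%). The pan-neuronal list ran the other way. Its mean log2 CPM was 7.58 to 8.31 in the 5 libraries with a high mesenchyme level and 8.31 to 8.84 in the rest. A rise with the mesenchyme or glia level and a fall with the neuronal level therefore cannot be told apart. Whether mesenchyme or glia carries the transcripts was not tested.

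Among ligands, the genes that rose with the mesenchyme level were 5 of the 7 class 3 semaphorins (SEMA3A, SEMA3B, SEMA3C, SEMA3E and SEMA3G), the netrins NTN1 and NTN4, the repellent SLIT3 and the ephrin EFNA4. None of the 13 semaphorins of other classes passed the test, SEMA4B being at 0.28 ± 0.11 (edgeR adjusted p = 0.153), and class 3 was not tested against the rest. Per log2 unit of marker level SEMA3B rose by 1.61 ± 0.18 log2 units (edgeR adjusted p = 1.00e-04; 1.5 ± 0.10 and 5.12e-06 on the glia level), and NTN4 by 1.04 ± 0.11 (8.79e-05). NTN1 rose by 0.99 ± 0.17 and SEMA3G, which had the lowest values at 0.00756 TPM in mechanoreceptor library 2 and 0.152 in proprioceptor library 1, by 1.14 ± 0.22. SEMA3C rose by 0.86 ± 0.16, SEMA3A by 0.44 ± 0.08 and EFNA4 by 0.67 ± 0.19.

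Among receptors, PLXNB3, a plexin, had 13, 12.3, 37.6 and 4.01 TPM in nociceptor, 0.931, 1.14 and 12.2 in mechanoreceptor and 0.342, 19.2 and 0.952 in proprioceptor cultures. It was above 12 TPM in all 5 libraries with a high level and at 4.01 TPM or below in the others, and rose by 1.15 ± 0.14 (edgeR adjusted p = 0.000157). EPHB4, a receptor of ephrin-B2, rose by 1.21 ± 0.15 (0.000245) and EPHA2, a receptor of ephrin-A ligands, by 1.18 ± 0.16 (0.000321). PLXNB2 rose by 0.78 ± 0.13 and ROBO2 by 0.78 ± 0.17. The remaining genes that rose were EPHA4, EPHA7, EPHB1, EPHB3, PLXNA2, PLXND1, ROBO1 and UNC5D. These were listed after their values were seen. NTNG2 (-0.70 ± 0.13, adjusted p = 0.00319), EPHA8 (-0.52 ± 0.13, 0.0195) and DRAXIN (-0.34 ± 0.10, 0.0474) fell. Of the 25 slopes, 12 were called in each of the 10 fits that left out 1 library (SEMA3A, SEMA3B, SEMA3C, SEMA3E, PLXNB2, PLXNB3, EPHA2, EPHA4, EPHB4, NTN1, NTN4 and NTNG2). EPHA7, EPHB1 and ROBO2 were lost without mechanoreceptor library 3 and without proprioceptor library 2, EPHA8 and UNC5D without nociceptor library 4 and without proprioceptor library 2, PLXND1 and SEMA3G without mechanoreceptor library 3 and PLXNA2 without proprioceptor library 2. SLIT3 was lost in 4 of the 10 fits, EFNA4 and ROBO1 in 6, EPHB3 in 8 and DRAXIN in 9. The count of genes called was 16 without mechanoreceptor library 3 and 16 without proprioceptor library 2, and ranged from 16 to 26 over the 10 libraries. In both of these fits it came to 22.2% of the guidance genes tested, beside 6.35% and 6.2% of all genes. It was 24 without proprioceptor library 1 (33.3%, beside 10.4%).

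**Figure D3:**
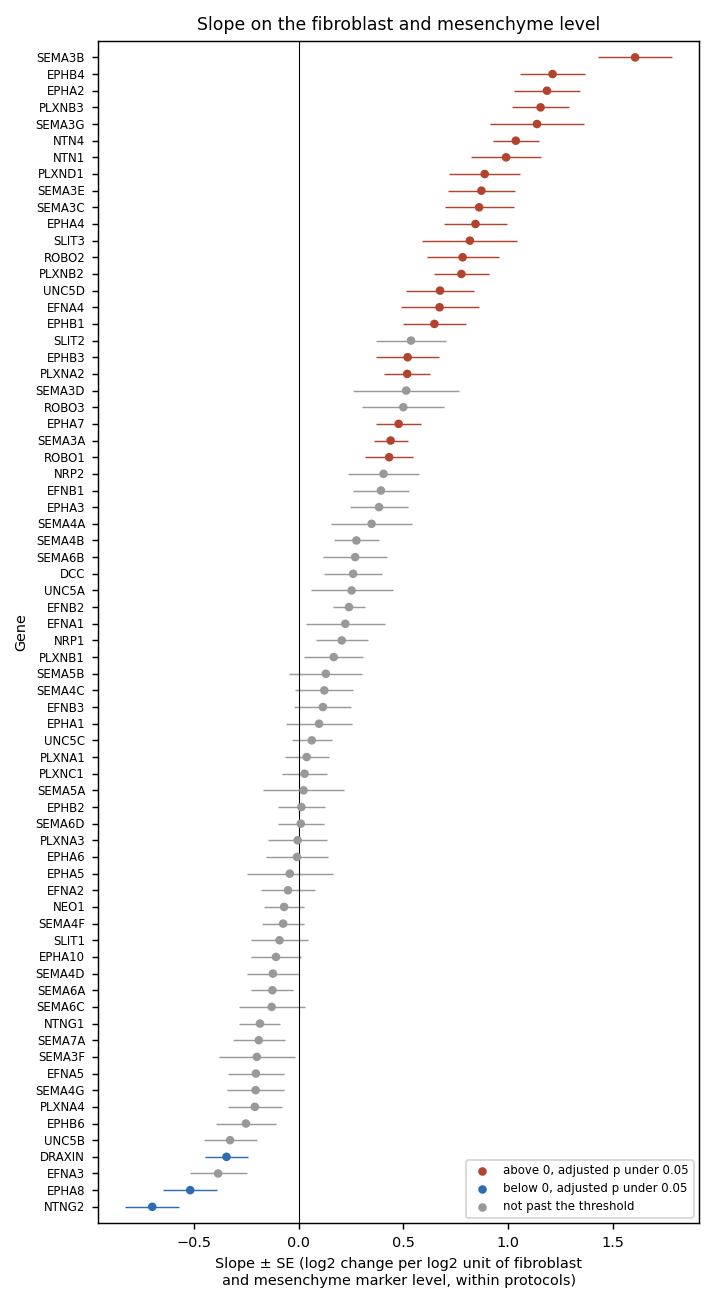
Slope on the fibroblast and mesenchyme level (horizontal axis, log2 units of gene expression per log2 unit of marker level, with SE bars) for the 70 tested guidance genes (vertical axis, sorted). The 22 genes in red and the 3 in blue had an adjusted p under 0.05 by edgeR, and the others are grey.

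**Figure D4:**
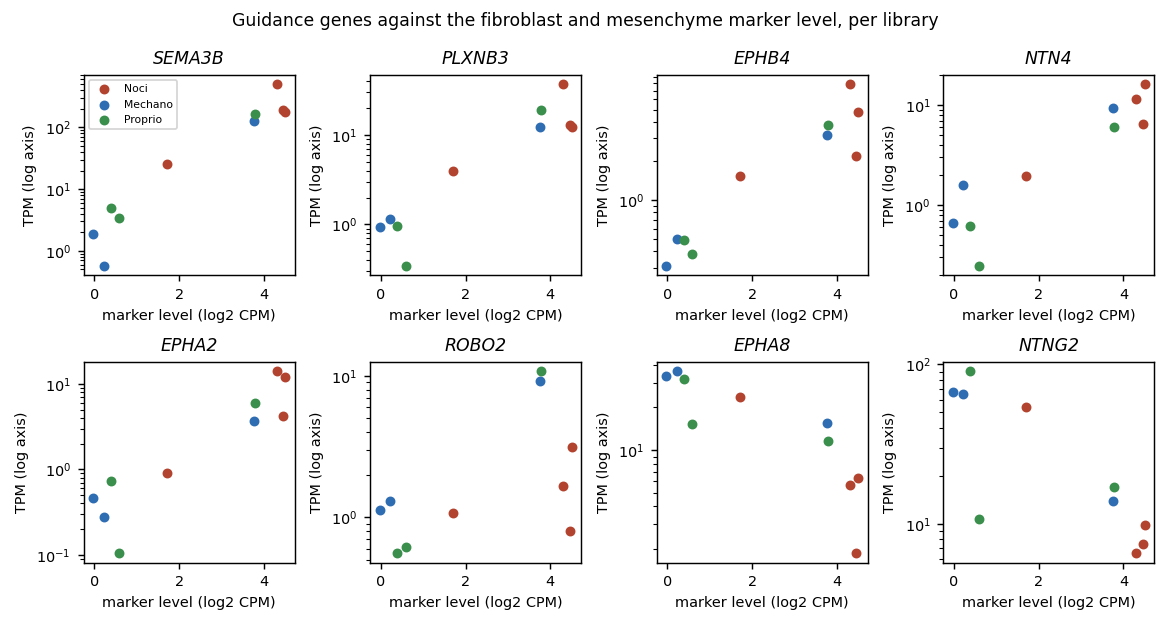
TPM (log axis) of 8 guidance genes against the fibroblast and mesenchyme marker level (mean log2 CPM) in the 10 libraries, coloured by protocol. SEMA3B, PLXNB3, EPHB4, NTN4, EPHA2 and ROBO2 are higher on the right, EPHA8 and NTNG2 lower, and 1 library (nociceptor 4) lies in the gap between the 2 sets.

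The mixture of transcripts behind the gene values was examined in 59 of the 68 guidance genes with a mean of at least 1 TPM. In these, 95% or more of the TPM could be matched to GENCODE 29 transcripts. The genes left out were EPHA1, EPHA7, EPHB6, NTN4, PLXNA1, ROBO2, SEMA4F, SEMA6B and SEMA7A. Their matched share was 24.86% in EPHA7, 27.14% in EPHB6, 35.85% in ROBO2 and 48.18% in PLXNA1. It was higher in the others, up to 93.32% in NTN4. Which transcripts lie behind the levels, differences and slopes given above for the genes left out was not examined. A transcript counted as full length when its coding sequence reached 90% of the longest of its gene. A median of 73.9% of TPM per gene was in full-length transcripts, beside 68.3% over 10308 genes, and 16 of 59 genes (27.1%) had less than 50%, beside 35.9% of all genes. By counts, which weight long transcripts more, 8.47% of the guidance genes were below 50%, beside 21.1%. Short transcripts were the larger part of EPHA8. Its 495-codon transcript, which ends after exon 5, made 96.1% of its TPM and the 1005-codon transcript 3.88% (10.7% of counts). The short transcript had 1.86, 6.23, 5.62 and 22.5 TPM in nociceptor, 31.4, 35 and 15.2 in mechanoreceptor and 15.2, 11.4 and 30.1 in proprioceptor libraries, and the full one at most 1.97. The short form was ahead in every library.

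EPHA6 had 58.3% of its TPM in the 547-codon short transcript and 12.4% in the full-length one, which held 58.7% of its counts. The short transcript was ahead in every library, at 2.89 to 13.0 TPM against 0.488 to 2.68. UNC5C had 54.8% in a 260-codon transcript and 20.3% in the full-length one (58.1% of counts). In UNC5C the short form was ahead in 9 libraries and behind in mechanoreceptor library 1. NRP1 had 38.6% in full-length transcripts (62.8% of counts), 19.96% in the 644-codon transcript shown above and 7.32% in a 609-codon transcript. Full length was ahead of the 644-codon form except in mechanoreceptor library 1 and proprioceptor library 1, where the values were 30.7 against 31.6 and 2.55 against 6.16 TPM. NTNG1 stood mostly on a 438-codon transcript (57.5%). By TPM, ROBO3 (98.4%), PLXNB1 (82.2%) and SEMA3E (72.9%) were mostly on transcripts annotated as not coding. By counts these shares were 96.1%, 57.9% and 41.6%, and 56.1% of the counts of SEMA3E were full length. In DCC 44.4% of the TPM was on a 576-base transcript annotated as a target of nonsense-mediated decay, though 85.3% of its counts were full length. By contrast SEMA3B had 95.5% and NTNG2 98.0% in full-length transcripts over all libraries, though SEMA3B had 23.1% in mechanoreceptor library 2, where its level was lowest. Reads that fit several transcripts were divided by estimation, and the kit does not mark strand. Of the 73 genes, 39 overlap a gene on the other strand by gene span, introns included, UNC5B, NRP1, SEMA5A and PLXNC1 among them. Whether exons overlap was not checked. Reads of a pair cannot be told apart only where they do.

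**Figure D5:**
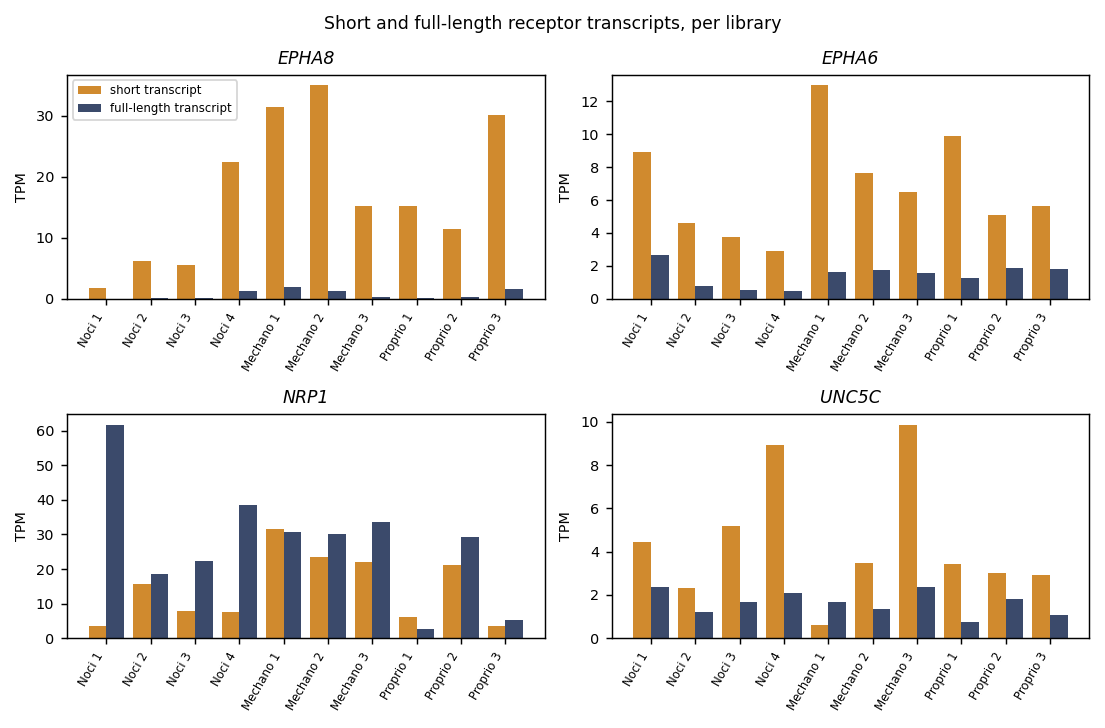
TPM of the short (orange) and the full-length (dark) transcript of EPHA8, EPHA6, NRP1 and UNC5C in each of the 10 libraries (horizontal axis). The short bar is far above the full one in EPHA8 in every library, while in NRP1 the full bar is mostly the taller.

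Genes that work beside the guidance receptors were examined as a second layer. Of 21 adaptors and co-receptors 20 were tested and 0 passed in any contrast or slope. Of all genes 0% passed in each contrast, 10.7% on the mesenchyme level and 8.03% on the glia level. An edgeR unadjusted p under 0.05 was reached by 1 of the 20 (5.0%) in each contrast. The shares of all genes were 8.18% (mechanoreceptor minus nociceptor), 6.19% (proprioceptor minus nociceptor) and 1.49% (proprioceptor minus mechanoreceptor). FLRT3, a ligand of UNC5 receptors, had 93.5, 48, 88 and 8.79 TPM in nociceptor, 8.2, 7.48 and 21.7 in mechanoreceptor and 4.74, 33.7 and 34.5 in proprioceptor cultures. Nociceptor libraries 1 to 3 were highest, the other groups lay lower with an overlap through nociceptor library 4, and the mechanoreceptor minus nociceptor difference was -2.50 ± 0.84. CNTN2, an axonal cell adhesion molecule, differed between proprioceptor and mechanoreceptor libraries by -1.15 ± 0.69, RGMA, a ligand of neogenin, by 2.00 ± 0.81, and FLRT2 by 1.51 ± 0.73. TENM3, a teneurin, differed by -1.17 ± 0.43 between proprioceptor and nociceptor libraries. DSCAM, a netrin receptor, differed by 0.96 ± 0.57 between mechanoreceptor and nociceptor libraries. Median differences were 0.14 (mechanoreceptor minus nociceptor), 0.02 (proprioceptor minus nociceptor) and -0.24 (proprioceptor minus mechanoreceptor).

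Of 49 genes of intracellular signalling downstream of the receptors all were tested and 0 passed in any contrast. Unadjusted p under 0.05 was reached by 8, 7 and 1 of them (16.3%, 14.3% and 2.04%) in the 3 contrasts in the same order, beside 8.18%, 6.19% and 1.49% of all genes. VAV3 had 2.03, 1.15, 0.612 and 1.97 TPM in nociceptor, 7.58, 5.06 and 2.6 in mechanoreceptor and 0.637, 2.51 and 0.938 in proprioceptor cultures. The mechanoreceptor libraries were the 3 highest, and the difference was 1.81 ± 0.53 from nociceptor and -2.10 ± 0.59 in proprioceptor minus mechanoreceptor libraries. MICAL2, an actin-oxidising enzyme, differed by 1.36 ± 0.43 between mechanoreceptor and nociceptor libraries. EVL, an actin regulator, differed by 1.06 ± 0.39 and PAK3, a kinase activated by Rac and Cdc42, by 0.79 ± 0.29 between proprioceptor and nociceptor libraries. PAK1 and TIAM1, a Rac exchange factor, differed by -0.66 ± 0.33 and -0.95 ± 0.50 between proprioceptor and mechanoreceptor libraries. ROCK1, a kinase of actin contraction, had 21, 9.74, 10.9 and 10.5 TPM in nociceptor, 5.03, 3.65 and 8.33 in mechanoreceptor and 1.87, 8.84 and 4.56 in proprioceptor cultures. It was higher in all 4 nociceptor libraries than in all others, with -1.57 ± 0.51 (mechanoreceptor) and -1.51 ± 0.51 (proprioceptor) as differences from nociceptor. On the mesenchyme level 6 of the 49 passed (12.2%, beside 10.7% of all genes), all rising (SRGAP2, NGEF, ARHGEF28, ROCK1, ROCK2 and GIPC1), and on the glia level 5 (10.2%, beside 8.03%), all rising (FES, SRGAP2, NGEF, ROCK1 and ROCK2). Both shares were near those of all genes. ROCK1 rose by 0.38 ± 0.08 on the former (edgeR adjusted p = 0.00659).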

How the data were processed

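Bulk RNA was profiled in 10 libraries of RUES2-Avil:tdT cultures. Trizol extraction, cDNA synthesis by a Clontech Ultra Low v4 kit and NexteraXT libraries (paired reads of 75 nt) are given per the labels. The authors' deposited tables hold estimated counts and TPM, by kallisto 0.50.1 on GRCh38.p14 per the submitters' processing notes; how transcripts were summed to genes is not given in the sources used here. A blank gene entry (0.733% to 1.66% of counts) was left out. Counts were fitted in edgeR 4.0.16 (R 4.3.3, TMM, filterByExpr, quasi-likelihood test, protocol means, Benjamini-Hochberg over 16130 genes). For DESeq2 they were rounded. Marker levels were mean log2 CPM (prior count 2). The alternatives were DESeq2 1.42.0, limma 3.58.1 on log2(TPM + 1) or log2(TPM + 0.1), RLE scaling, no filter, a covariate, a replicate block and leaving out each library. Scripts were tested on simulated data with less spread between replicates than these libraries, whose common biological coefficient of variation by edgeR was 0.55. That test checked the code and does not show how many differences could be found here. Members and lists were chosen with earlier results of these data known. Genes were named by rule: the 2 highest means per family, the 8 smallest unadjusted p per contrast and the 5 largest ratios between libraries, and for the pathway lists the 3 smallest p per contrast. Other named genes were chosen after their values were seen. Coordinates are from RefSeq (GRCh38.p14). The full-length transcripts of EPHA8, EPHA6, NRP1 and UNC5C differ in version between GENCODE 29 and the deposited table.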

Additional observations from a re-analysis of the deposited data

Results flagged for a closer look

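In the nociceptor group of 4 libraries, 10 of 73 guidance genes (13.7%) had 1 library far from the other 3 in TPM. The test is met by chance in about 1 in 20 groups of normally distributed values. Of the 16130 genes that passed the filter on low counts, 1624 (10.1%) met it here. Of the 70 guidance genes that passed that filter, 9 met it. In nociceptor library 4 the level was above the others in 6 genes: PLXNA4 (23.2 TPM, next 6.28), EFNA3 (47.6, next 11.4), UNC5B (22.3, next 5.72), NTNG2 (54.0, next 9.83), DRAXIN (16.6, next 4.35) and ROBO4 (0.259, next 0.0182, on 12 counts). This library also had the lowest fibroblast and mesenchyme level of the group, 1.70 against 4.31 to 4.51; its part in these values was not tested.

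In nociceptor library 1 the level was above the others in EPHA6 (16 TPM, next 7.06), EPHA3 (25.1, next 7.16) and EPHA7 (13.0, next 5.12). It was below them in EPHA1 (0.5 TPM, next 1.04), on only 10 counts against 14 to 17. All 4 genes encode EphA receptors. Library 1 had the largest share of coding counts on transcripts of 4 kb or longer in the group, 26.1% against 17.4% to 20.6%, and the part of this in the values was not tested.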

How the results depend on the processing

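The count of guidance genes called in a contrast stayed at 0 in every alternative except DESeq2, which called 1 (EFNA4, mechanoreceptor minus nociceptor). Counts at unadjusted p are given with the share of all genes reaching it in the same fit. The mechanoreceptor minus nociceptor count of 2 (beside 8.18%) became 6 without the filter (7.24%), 10 with the mesenchyme covariate (3.69%), 5 and 4 with limma on log2(TPM + 1) and log2(TPM + 0.1) (9.27% and 9.11%) and 5 with DESeq2 (7.68%). The proprioceptor minus nociceptor count of 2 (6.19%) became 4 (5.8%) without the filter, 8 (2.45%) with the covariate and 7 (6.56%) with DESeq2. The proprioceptor minus mechanoreceptor count of 5 (1.49%) became 8 (2.93%) with the covariate. SEMA3C, mechanoreceptor minus nociceptor, turned from -1.98 to 0.3952 with the covariate.

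Leaving out 1 library moved these 3 counts between 1 and 13, 2 and 18, and 1 and 9, and the count over all protocols between 1 and 14. They were 13, 13 and 14 without nociceptor library 4 (both contrasts with nociceptor, and over all protocols; 16.1%, 15.3% and 13.2% of all genes), 12 and 14 without mechanoreceptor library 3 (mechanoreceptor minus nociceptor, and over all protocols; 14.6% and 11.2%), and 18, 9 and 14 without proprioceptor library 2 (both proprioceptor contrasts and over all protocols; 16.3%, 4.44% and 12.3%). The shares of all genes rose in these fits too. The slope counts of 25 and 17 (10.7% and 8.03% of all genes) ranged from 16 to 26 (mesenchyme) and from 8 to 22 (glia), where the glia count was 9 without mechanoreceptor library 3 (4.76%), 8 without proprioceptor library 2 (3.86%) and 11 without proprioceptor library 1 (6.87%). The cause of these shifts was not tested.

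Deviations of same-numbered libraries had correlations from -0.633 to 0.49, and those of other pairs from -0.597 to 0.792. The labels do not say whether same-numbered libraries were made together. With ranges this alike, the correlations cannot decide it. With the replicate block the unadjusted counts were 17, 14, 6 and, over all protocols, 16, beside 14.8%, 12.2%, 1.37% and 10.8% of all genes, and the slope counts were 8 (mesenchyme, 4.02%) and 10 (glia, 4.49%).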
